A study of Mus musculus with 4 samples.

Results

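The cell division genes are 38 genes that act when a cell copies its DNA and parts the copies, 26 of them in mitosis and 12 in DNA replication. They were picked by symbol for these roles, are 38 of the 55488 genes in the count files, and all 38 were found in each of the 4 libraries. The question asked of them is which liver cell types divide in which library.

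The study removed the transcription coactivators YAP, from the gene Yap1, and TAZ, from the gene Wwtr1, in mouse liver and counted transcripts of single liver cells with 10x Genomics 3' chemistry v3.1. There were 4 libraries of 1 mouse each: wild type (WT), mice without Yap (YAPKO), mice without Taz (TAZKO) and mice without both (DKO), the last 3 carrying loxP-flanked alleles together with albumin-Cre. Albumin-Cre deletes in hepatocytes (HCs) and biliary epithelial cells (BECs), so in the immune and endothelial cells described below the deletion is not driven. HCs and nonparenchymal cells were isolated apart, the latter with lysis of red blood cells, and mixed at a set ratio before loading, so the share of a cell type in a library is not its share in the liver. The labels name no treatment and give no age. Since each genotype has 1 library, no value can be checked in a second mouse, and a comparison sets 1 library beside another.

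The WT file held 66259687 unique molecular identifiers (UMIs) in 13657 barcodes, the YAPKO file 85989454 in 7711, the TAZKO file 49022089 in 14418 and the DKO file 77411746 in 9188. Cells with 500 to 6000 genes and at most 10% of UMIs from mitochondrial genes were kept, 30362 in all. The median kept cell had 4618 UMIs in WT, 7337 in YAPKO, 3555.5 in TAZKO and 5952.5 in DKO, so libraries differ in depth and values are given per library. Levels below are UMIs of a gene or gene group per 1000000 UMIs of the cells counted (CPM), with 95% exact Poisson intervals on summed levels, while shares have Clopper-Pearson intervals and ratios have conditional binomial ones, both exact. All intervals and floors cover counting error only. The 4 files share few barcodes, from 10 between YAPKO and DKO to 67 between WT and TAZKO.

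Yap1 and Wwtr1 levels in HCs served as the label check. Yap1 was at 21.4 CPM (19.4 to 23.6) in WT HCs and at 4.74 (3.77 to 5.90) in YAPKO, 47.4 (43.8 to 51.2) in TAZKO and 4.50 (3.79 to 5.30) in DKO. Wwtr1 was at 5.12 CPM (4.15 to 6.25) in WT HCs, 13.2 (11.51 to 15.02) in YAPKO, 1.24 (0.725 to 1.99) in TAZKO and 2.34 (1.84 to 2.94) in DKO. Each deleted gene was lowest in the libraries labelled for it, and UMIs of it remained there. Counts from the 3' end may include transcripts of a recombined allele, so they check the labels only in part. In endothelial cells (ECs), where the Cre driver is not active, Yap1 was at 38.5 CPM in WT, 39.7 in YAPKO, 57.3 in TAZKO and 39.2 in DKO.

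A cell that divides first duplicates its DNA in S phase, which needs a helicase to open the double strand, a clamp to hold the polymerase and a supply of deoxynucleotides. It then condenses its chromosomes, ties them to a spindle of microtubules and pulls the copies apart in mitosis, under kinases and cyclins that are made and destroyed on a schedule. Most HCs of an adult liver are at rest, while Kupffer cells (KCs), the resident macrophages of the liver sinusoids, keep their number by dividing in place.

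Many genes of mitosis and of replication are known to share promoter elements, so the promoters of 6 members are shown. A promoter entry from RefSeq (build GRCm38.p6) was matched for 32 of the 38 members, 2 of them with more than 1 entry, and the 250 bases before the start were searched. Stmn1, Tpx2, Ccna2, Aurkb, Pbk and Esco2 had none. The 6 shown are the mitotic and the replication members with the most UMIs that hold a motif searched for their group: Cenpa at chr5:30666636-30666885 on the plus strand, Top2a at chr11:99024190-99024439 on the minus strand, Mki67 at chr7:135716380-135716629 on the minus strand, Rrm1 at chr7:102441445-102441694 on the plus strand, Mcm6 at chr1:128359706-128359955 on the minus strand and Mcm5 at chr8:75109259-75109508 on the plus strand. They run 5' to 3' towards the start of the gene, and capitals mark the motif matches of the gene's own group on either strand, so that ATTGG is CCAAT read from the other strand and TTCAAA is TTTGAA.
Cenpa: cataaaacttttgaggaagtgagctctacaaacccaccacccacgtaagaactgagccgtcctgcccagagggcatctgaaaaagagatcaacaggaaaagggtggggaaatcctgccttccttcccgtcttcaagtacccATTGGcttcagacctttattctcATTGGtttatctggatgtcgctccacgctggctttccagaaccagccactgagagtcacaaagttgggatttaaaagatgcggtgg
Top2a: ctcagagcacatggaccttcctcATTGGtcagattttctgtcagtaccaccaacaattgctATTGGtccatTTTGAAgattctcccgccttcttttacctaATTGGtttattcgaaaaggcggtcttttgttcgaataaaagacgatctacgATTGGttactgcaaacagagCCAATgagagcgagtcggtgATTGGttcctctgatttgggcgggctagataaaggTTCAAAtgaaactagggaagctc
Mki67: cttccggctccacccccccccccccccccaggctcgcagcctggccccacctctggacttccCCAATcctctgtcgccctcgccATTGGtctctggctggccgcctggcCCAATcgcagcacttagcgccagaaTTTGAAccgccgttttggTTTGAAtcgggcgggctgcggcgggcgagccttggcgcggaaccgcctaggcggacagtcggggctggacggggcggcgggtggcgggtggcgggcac
Rrm1: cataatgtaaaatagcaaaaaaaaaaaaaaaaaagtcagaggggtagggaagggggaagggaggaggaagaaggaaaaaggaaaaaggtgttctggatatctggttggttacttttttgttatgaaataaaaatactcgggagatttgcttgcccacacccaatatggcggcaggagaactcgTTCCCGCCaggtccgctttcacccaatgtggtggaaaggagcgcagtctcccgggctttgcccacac
Mcm6: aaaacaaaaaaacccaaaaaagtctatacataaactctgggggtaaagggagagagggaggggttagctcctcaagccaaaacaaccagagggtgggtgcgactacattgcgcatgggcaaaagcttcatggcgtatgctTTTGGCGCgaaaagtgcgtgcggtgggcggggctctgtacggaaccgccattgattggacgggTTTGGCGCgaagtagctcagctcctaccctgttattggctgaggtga
Mcm5: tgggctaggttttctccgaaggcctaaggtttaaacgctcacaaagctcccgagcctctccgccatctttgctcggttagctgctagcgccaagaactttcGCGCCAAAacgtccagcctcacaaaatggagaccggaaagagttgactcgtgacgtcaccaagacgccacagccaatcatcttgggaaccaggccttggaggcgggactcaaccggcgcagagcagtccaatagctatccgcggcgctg

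For the mitotic members the motifs were TTTGAA, the core of the cell cycle homology region, and CCAAT, the box bound by NF-Y, both on either strand. TTTGAA was in 9 of 21 mitotic and 1 of 11 replication promoters, beside 16.0% of all 32851 promoters. CCAAT was in 17 of 21 mitotic and 9 of 11 replication promoters, beside 33.8% of all promoters. Both motifs together were in 8 of 21 mitotic and 1 of 11 replication promoters, beside 5.55% of all.

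For the replication members the motifs were 3 forms of the E2F site, TTTGGCGC, TTTCCCGC and GGCGGGAA, on either strand, of which the last and the reverse complement of the second share 7 letters. TTTGGCGC was in the promoters of Mcm5 and Mcm6 and of no mitotic member, beside 0.417% of all promoters. GGCGGGAA was in those of Rrm1 and Uhrf1 and of no mitotic member, beside 1.86% of all. TTTCCCGC was in no member's window, beside 0.895% of all promoters. A match describes letters only, and where there is none, only these letters are missing from this window.

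Cell types were named from marker genes after the cells had been clustered without cell cycle genes, and all names mean X-like cells, such as KC-like cells. A cell is called dividing when it holds at least 5 UMIs from at least 3 of the 26 mitotic members. Of the 30362 cells, 898 were dividing, which is 2.96% of the cells and 6.19% of the UMIs, and they held 81.0% of all UMIs of the mitotic members. Many cells lie near this limit, as 19956 cells had no mitotic UMI, 8139 had 1 or 2, 1568 had 3 to 7 and 699 had more than 7. In dividing cells the median was 27.5 mitotic UMIs, with quartiles of 8 and 106.

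Dividing cells were deeper than others, with a median of 14920 UMIs beside 4963 over all cells, and had a median simulated-doublet score of 0.690 beside 0.254. Likely doublets were kept, and the part of doublets and of depth in the share of dividing cells was not tested beyond the alternatives named below. To set depth aside in part, each cell of at least 2000 UMIs was also thinned to 2000 UMIs and called dividing at 2 UMIs from 2 mitotic members. Thinning left out 1317 cells in WT, 428 in YAPKO, 2281 in TAZKO and 776 in DKO. In a type that should hold almost no dividing cell, the neutrophils, 1 of 950 cells (0.105%) was dividing at a median of 2133.5 UMIs per cell. This 1 cell, from YAPKO, held no UMI of the neutrophil markers and had basophil or mast cell markers at 26104 CPM. By its markers it is therefore not a neutrophil.

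Over all cells the mitotic members were at 363 CPM in WT, 457 in YAPKO, 347 in TAZKO and 237 in DKO. Dividing cells were 210 of 7155 in WT (2.94%, 2.56 to 3.35), 319 of 6275 in YAPKO (5.08%, 4.55 to 5.66), 168 of 8638 in TAZKO (1.94%, 1.66 to 2.26) and 201 of 8294 in DKO (2.42%, 2.10 to 2.78). The level and the share rank the knock-out libraries differently, with DKO lowest by level and TAZKO lowest by share. After thinning the shares were 3.39% in WT, 4.72% in YAPKO, 3.05% in TAZKO and 2.77% in DKO. YAPKO was highest by every measure of mitosis, while the replication members were at 281 CPM in WT, 269 in YAPKO, 257 in TAZKO and 199 in DKO, highest in WT.

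**Figure D1:**
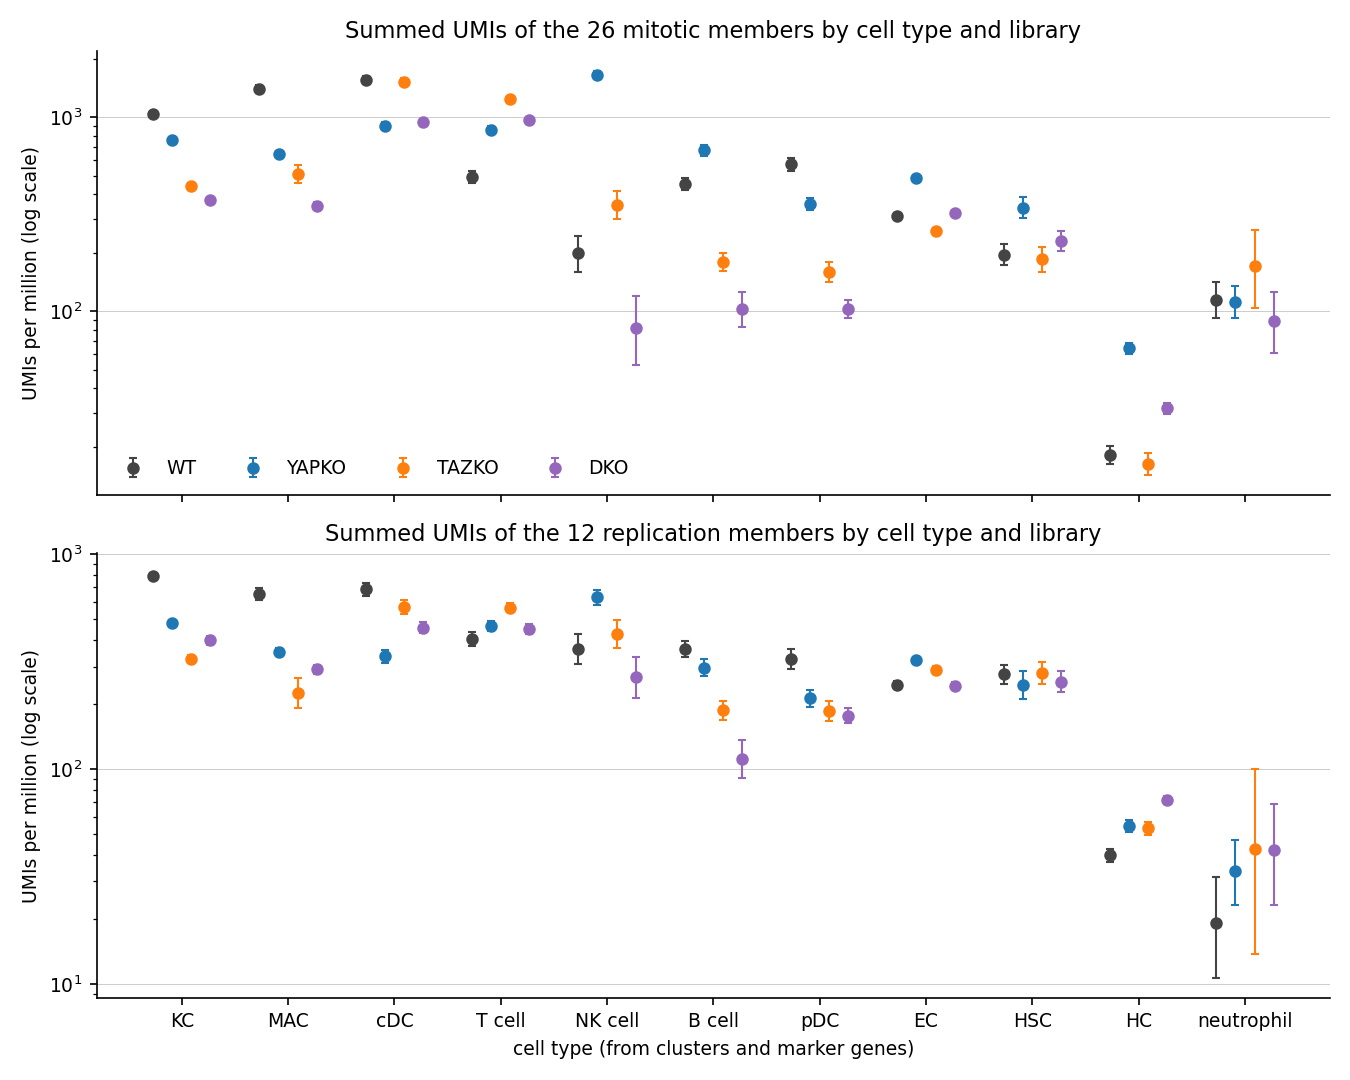
Level of the mitotic members and of the replication members in each cell type and library, in CPM with 95% intervals. In KCs the mitotic level runs from 1041 CPM in WT to 372 in DKO, and in T cells from 490.2 CPM in WT to 1241 in TAZKO.

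Among types of at least 50 cells in a library, those with the highest mitotic level were not the same in the 4 libraries. In WT they were classical dendritic cells (cDCs) at 1553 CPM, macrophages other than KCs (MACs) at 1396 and KCs at 1041. In YAPKO they were natural killer (NK) cells at 1651 CPM, cDCs at 906 and T cells at 861, the last 2 with intervals that overlap. TAZKO had cDCs at 1526 CPM, T cells at 1241 and MACs at 512 in front, the last resting on 1 cell without which MACs are at 273 CPM, below KCs at 441. DKO had T cells at 966 CPM and cDCs at 942, whose intervals overlap. HCs had the lowest level of these types in every library. The limit leaves out plasma cells and granulocyte progenitors, which were few and had higher levels in several libraries. No cluster was named for either type. Their cells were placed one by one, only from clusters picked for a high mitotic level, so their high levels are in part built into the labels. In WT the 4 plasma cells were at 4421 CPM, with all 362 mitotic UMIs in 1 cell. The limit also leaves out stellate cells (HSCs) of YAPKO and BECs of the knock-out libraries. For all these types counts of dividing cells are given further below.

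By share of dividing cells, again among types of at least 50 cells, the order was another. KCs and cDCs led in WT with 16.2% (13.4 to 19.5) and 16.1%, and their intervals overlap. In YAPKO KCs led with 14.7% (11.8 to 18.0), before MACs with 10.1% and cDCs with 9.09%. cDCs led in TAZKO with 16.9% and in DKO with 10.2%. Neutrophils, HCs and B cells were among the 5 types with the lowest share in each library.

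**Figure D2:**
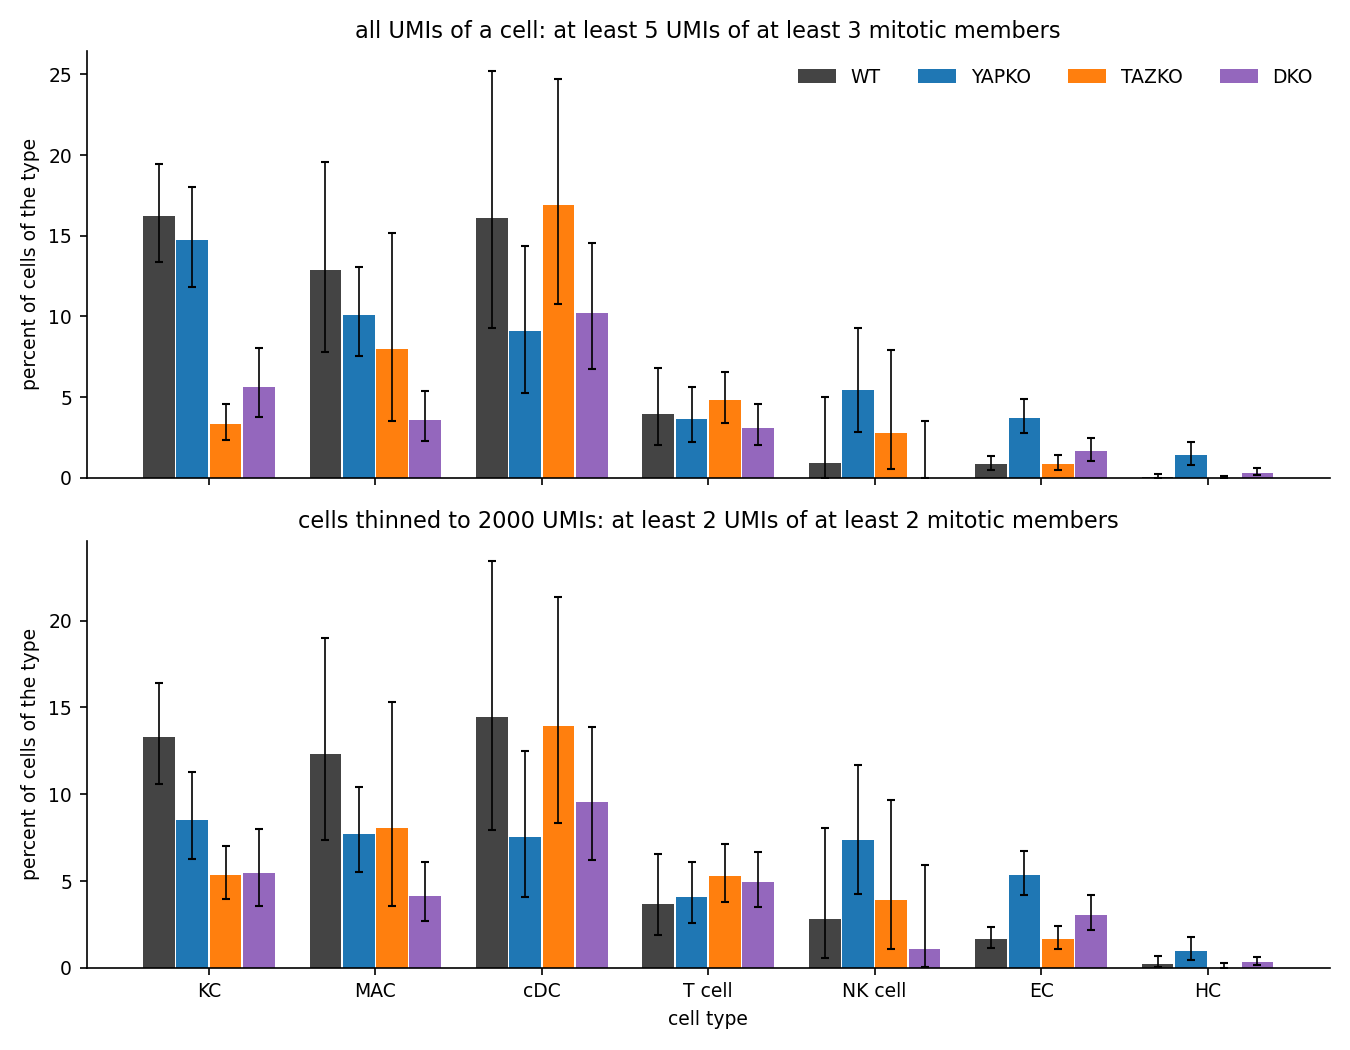
Share of dividing cells in each cell type and library, with 95% Clopper-Pearson intervals, over all UMIs and after thinning to 2000 UMIs per cell. ECs in YAPKO stand at 3.74% over all UMIs and 5.34% after thinning, beside 0.839% and 1.68% in WT.

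The make-up of the dividing cells differed between the libraries. KCs were 46.2% of the dividing cells in WT, 24.8% in YAPKO, 22.0% in TAZKO and 13.9% in DKO, while they were 8.34%, 8.56%, 12.9% and 5.97% of all cells. T cells were 5.71% of the dividing cells in WT, 6.27% in YAPKO, 21.4% in TAZKO and 12.4% in DKO. ECs were 8.10% in WT, 16.0% in YAPKO, 9.52% in TAZKO and 10.9% in DKO. The KC part was largest in WT. In TAZKO the 37 dividing KCs stood beside 36 dividing T cells, and in DKO the 28 dividing KCs beside 26 cDCs and 25 T cells, so no type clearly led there.

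Most clusters called mixed hold the markers of 2 lineages. The exception, a cluster of 40 cells, scored highest for mesothelial cells, but its leading genes held more markers of another type. Cells of all these clusters were kept apart as mixed, 645 cells in WT (9.01%), 588 in YAPKO (9.37%), 587 in TAZKO (6.80%) and 633 in DKO (7.63%). Among them 28 were dividing in WT, 43 in YAPKO, 35 in TAZKO and 53 in DKO, which is 13.3%, 13.5%, 20.8% and 26.4% of the dividing cells. Doublet scores were high in mixed cells, with medians from 0.698 in WT to 0.808 in YAPKO. The largest mixed cluster joins KC markers with hemoglobin and held 23 dividing of 194 cells in WT, 26 of 250 in YAPKO, 19 of 254 in TAZKO and 39 of 319 in DKO. Another 17, 7, 19 and 8 cells had too few marker UMIs to be placed, with 0, 2, 2 and 1 dividing cells.

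**Figure D3:**
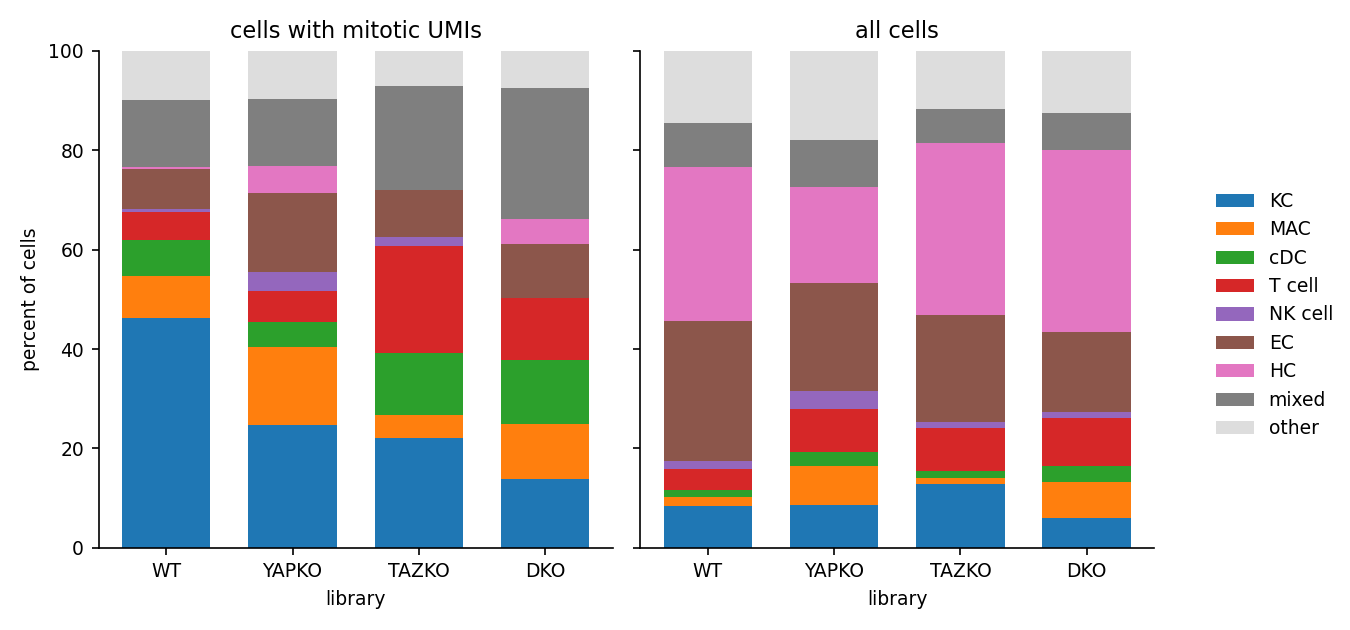
Make-up of the dividing cells of each library by cell type. KCs fall from 46.2% of the 210 dividing cells in WT to 13.9% of the 201 in DKO, and mixed cells rise from 13.3% to 26.4%.

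In KCs the mitotic members were highest in WT and lower in the 3 other libraries. There were 597 KCs in WT, 537 in YAPKO, 1110 in TAZKO and 495 in DKO, with a median of 10849, 17099, 4633 and 10118 UMIs per cell. The mitotic members together were at 1041 CPM (1017 to 1066) in WT, 766 (748 to 785) in YAPKO, 441 (424 to 458) in TAZKO and 372 (356 to 389.9) in DKO. Against WT the level was 0.736 times (0.711 to 0.761) in YAPKO, 0.424 times (0.405 to 0.443) in TAZKO and 0.358 times (0.340 to 0.377) in DKO. All 26 mitotic members were below WT in each of the 3 knock-out libraries.

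Dividing KCs were 97 in WT (16.2%), 79 in YAPKO (14.7%), 37 in TAZKO (3.33%, 2.36 to 4.57) and 28 in DKO (5.66%, 3.79 to 8.07). The share was 0.905 times WT in YAPKO (0.664 to 1.23), 0.205 times in TAZKO (0.137 to 0.302) and 0.348 times in DKO (0.220 to 0.535). Thinned to 2000 UMIs, with 40, 22, 209 and 38 cells left out, the shares were 13.3% in WT, 8.54% in YAPKO, 5.33% in TAZKO and 5.47% in DKO. By these shares YAPKO is at 0.643 times WT (0.432 to 0.946), an interval that, unlike the unthinned one, leaves out 1. TAZKO is at 0.401 times WT, beside 0.205 times unthinned, and DKO at 0.412 times, beside 0.348 times. Thinning changes the depth, the limit for dividing cells and the cells counted together, and TAZKO KCs had the fewest UMIs per cell, so the part of depth alone in the unthinned share was not tested.

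Some of the KC values turn on how cells are chosen. The study's methods word the lower and upper limit as transcripts, so the reading as UMIs below is closer to that wording than the reading as genes used here. With the limits of 500 and 6000 read as UMIs and not as genes, which leaves out most KCs in WT, YAPKO and DKO, the level in YAPKO is 1.49 times WT and the share 2.26 times, and the TAZKO share is 0.329 times WT. Counting the mixed cells with their best type, an alternative chosen after seeing the data, gives a share of 0.543 times WT in DKO, and calling cells dividing at 3 UMIs from 2 members gives 0.578 times. TAZKO and DKO stayed below WT in each of these. Markers of HCs differ as well in KCs, where the 9 HC markers summed to 2545 CPM in WT, 702 in YAPKO, 4184 in TAZKO and 2804 in DKO, all 9 above 0 and Alb the highest in each. Their part in the KC values was not tested.

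KCs lay in 2 clusters. In the deeper one 80 of 451 cells were dividing in WT, 71 of 486 in YAPKO, 29 of 754 in TAZKO and 26 of 415 in DKO. In the shallower one, led by Sdc3 and Ccl24, 17 of 146 were dividing in WT, 8 of 51 in YAPKO, 8 of 356 in TAZKO and 2 of 80 in DKO. TAZKO and DKO lay below WT in both. Outside dividing cells the mitotic members were at 91.3 CPM in WT KCs, 81.9 in YAPKO, 82.9 in TAZKO and 99.4 in DKO, a level that the limit for dividing cells itself holds down. Within dividing KCs they were at 3793 CPM in WT, 3588 in YAPKO, 7184 in TAZKO and 3431 in DKO, highest in TAZKO. The limit is a fixed count of mitotic UMIs, so a shallower cell needs a higher mitotic CPM to pass it. Dividing KCs had a median of 17699 UMIs in WT, 21018 in YAPKO, 7797 in TAZKO and 14622 in DKO. The levels within dividing KCs are thus in part built into the call, and the part of depth was not tested.

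Counts of members in KCs are given as genes lower than WT by 2 times or more, with 1 added to each count and at least 20 UMIs in both libraries together. In TAZKO KCs 18 of 26 mitotic members were lower by this rule, beside 5.18% of all 11867 genes tested, and none was higher, beside 10.1%. In DKO KCs 24 of 26 were lower, all but Cenpa and Kif23, beside 3.48% of 11599 genes, and none was higher, beside 4.03%. In YAPKO KCs none of the 26 was lower, beside 4.21% of 11854 genes, or higher, beside 0.962%. The median ratio of the mitotic members was 0.740 in YAPKO, 0.429 in TAZKO and 0.322 in DKO, beside 0.964, 1.18 and 1.03 over all genes tested. The 3 comparisons share the WT library.

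ECs went the other way in YAPKO. There were 2027 ECs in WT, 1365 in YAPKO, 1862 in TAZKO and 1332 in DKO, with medians of 5225, 7597, 3889 and 5724 UMIs. The mitotic members together were at 309 CPM (299 to 320.1) in WT, 487 (474 to 500.5) in YAPKO, 258 (247 to 270.0) in TAZKO and 322 (309.7 to 334) in DKO. The YAPKO level was 1.58 times WT (1.51 to 1.65), the TAZKO level 0.835 times (0.789 to 0.884) and the DKO level 1.04 times (0.988 to 1.09). In YAPKO 25 of 26 mitotic members were above WT, the exception being Ccnb1.

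Dividing ECs were 17 in WT (0.839%), 51 in YAPKO (3.74%), 16 in TAZKO (0.859%) and 22 in DKO (1.65%). The share in YAPKO was 4.45 times WT (2.53 to 8.23), in TAZKO 1.02 times (0.484 to 2.16) and in DKO 1.97 times (0.999 to 3.95). Thinned, with 177, 55, 234 and 61 cells left out, the shares were 1.68% in WT, 5.34% in YAPKO, 1.66% in TAZKO and 3.07% in DKO. YAPKO was thus highest by share, by level and after thinning. Within dividing ECs the mitotic members were at 14834 CPM in WT, 7020 in YAPKO, 12140 in TAZKO and 7277 in DKO, highest in WT. Dividing ECs had a median of 8333 UMIs in WT, 10551 in YAPKO, 6093.5 in TAZKO and 7649.5 in DKO. As in KCs, these levels are in part built into the call, and the part of depth was not tested.

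The libraries differ in which EC clusters they hold, so the type is the same but its cells are not. Most WT ECs, 1609, lay in a cluster led by Clec4g, Cyp4b1 and Stab1, most YAPKO and DKO ECs, 847 and 897, in one led by Ramp2, Plpp1 and Kit, and most TAZKO ECs, 1443, in one led by Tpbgl and Arhgap23. In these home clusters 8 cells were dividing in WT (0.497%), 22 in YAPKO (2.60%), 5 in TAZKO (0.346%) and 9 in DKO (1.00%). A further 7, 18, 11 and 9 dividing ECs came from a cluster led by the cell division genes themselves, whose cells were placed one by one from EC markers. YAPKO was highest in the home clusters as well.

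The size of the EC difference rests on the choice of cells. Leaving out the 8% of cells with the highest doublet scores in each library gives a YAPKO level of 4.10 times WT and a share of 10.3 times, a DKO level of 1.79 times, and a TAZKO level of 1.12 times, on the other side of 1. Limits read as UMIs give 2.91 times and a share of 10.7 times for YAPKO, a level of 1.35 times with a share of 2.52 times for TAZKO, and 1.66 times with a share of 0.651 times for DKO. Without Stmn1 the DKO level is 0.976 times WT. The 9 HC markers summed to 5516 CPM in WT ECs, 1665 in YAPKO, 7039 in TAZKO and 3923 in DKO, with Alb the highest, and their part was not tested.

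Among the EC members counted by the same rule, 5 of 26 mitotic members were higher in YAPKO, beside 2.42% of 13360 genes, and none was lower, beside 4.18%. In TAZKO 2 of 26 were lower, beside 3.26% of 13187 genes, and none was higher, beside 7.03%. In DKO 1 of 26 was lower, beside 3.53% of 13293 genes, and none was higher, beside 4.46%. With at least 50 UMIs asked for, 1 is left in TAZKO and none in DKO, and with 3 added to each count none is left in DKO. The median mitotic ratio was 1.55 in YAPKO, 0.838 in TAZKO and 0.859 in DKO, beside 1.03, 1.13 and 1.04 over all genes tested.

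T cells had higher mitotic levels in all 3 knock-out libraries than in WT. There were 304 T cells in WT, 545 in YAPKO, 750 in TAZKO and 803 in DKO, at medians of 4693, 4558, 4064 and 3139 UMIs. Together the mitotic members were at 490.2 CPM (456 to 526) in WT, 861 (827 to 896) in YAPKO, 1241 (1204 to 1278) in TAZKO and 966 (931 to 1001) in DKO. The ratio to WT was 1.76 (1.62 to 1.91) in YAPKO, 2.53 (2.34 to 2.74) in TAZKO and 1.97 (1.82 to 2.14) in DKO. A single WT cell held 291 of the 757 mitotic UMIs of WT T cells (38.4%), and without the top cell of each library, again chosen after seeing the data, the ratios are 2.44, 3.65 and 2.80.

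The share of dividing T cells did not differ in this way. It was 12 of 304 in WT (3.95%), 20 in YAPKO (3.67%), 36 in TAZKO (4.80%) and 25 in DKO (3.11%). Against WT the share was 0.930 times in YAPKO, 1.22 times in TAZKO and 0.789 times in DKO, and each of the 3 intervals holds 1. After thinning, with 7, 3, 12 and 31 cells left out, the ratios were 1.10, 1.43 and 1.33. The higher level therefore came with more mitotic UMIs per dividing cell, as the members were at 4685 CPM within the dividing T cells of WT, 6990 in YAPKO, 10036 in TAZKO and 8805 in DKO.

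Doublet scores move with this result. In dividing T cells the median score was 0.25 in WT, 0.388 in YAPKO, 0.772 in TAZKO and 0.761 in DKO, beside 0.230, 0.117, 0.123 and 0.101 over all T cells. Without the 8% of cells with the highest scores the DKO level is 0.971 times WT. With limits read as UMIs the TAZKO level is 1.46 times WT. The HC markers summed to 7604 CPM in WT T cells, 1732 in YAPKO, 9381 in TAZKO and 6148 in DKO, all 9 above 0 and Alb the highest. Neither the part of doublets nor that of HC transcripts was tested.

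Most dividing T cells lay in the cluster led by Ccl5, beside Cd3d and Cd3g, with 11 of 162 in WT, 18 of 328 in YAPKO, 32 of 447 in TAZKO and 20 of 577 in DKO. The cluster led by Dapl1, Lef1 and Il7r held 1 of 142 in WT, 2 of 216 in YAPKO, 4 of 302 in TAZKO and 5 of 226 in DKO. In every library the first cluster had the larger share.

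By the rule of 2 times or more, 18 of 26 mitotic members were higher in TAZKO T cells, beside 15.6% of 10522 genes, and none was lower, beside 2.73%. In DKO T cells 14 of 26 were higher, beside 6.63% of 9937 genes, and none was lower, beside 1.93%. In YAPKO T cells 8 of the 25 tested were higher, beside 2.73% of 9500 genes, and none was lower, beside 3.26%, and with 3 added to each count 4 were higher. The median mitotic ratio was 1.87 in YAPKO, 2.76 in TAZKO and 2.20 in DKO, beside 1.05, 1.18 and 1.11 over all genes tested.

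**Figure D4:**
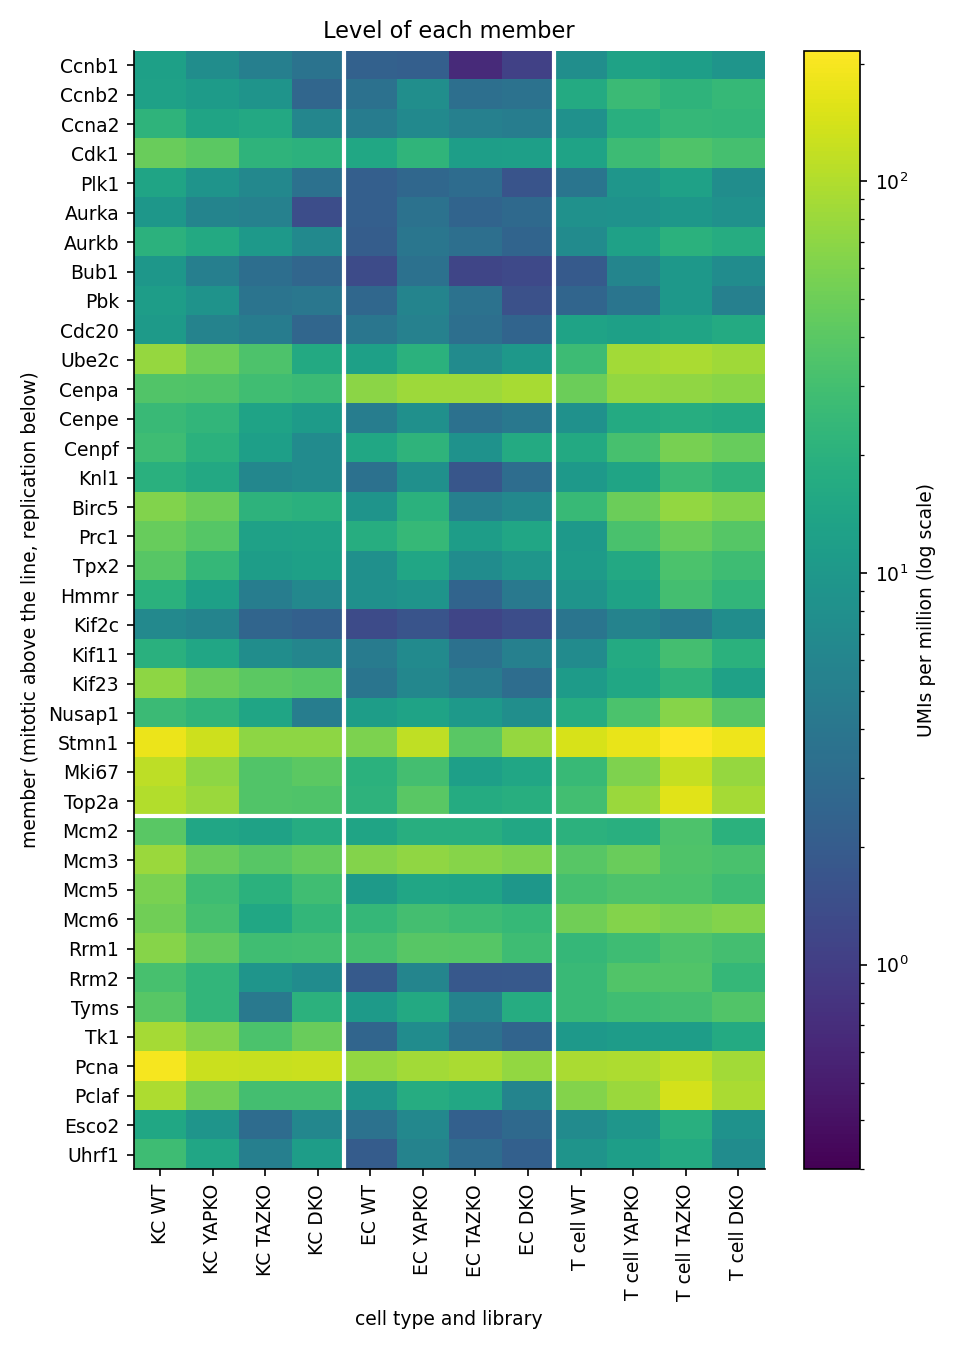
Level of each of the 38 members in KCs, ECs and T cells of the 4 libraries, WT included, in CPM on a log color scale. In KCs Tyms is at 4.25 CPM in TAZKO and 39.5 in WT, and in T cells Top2a is at 162 CPM in TAZKO and 29.1 in WT.

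The single mitotic members follow, ordered by what they do, each as its level in the cells of a type. The chromosome proteins come first. Mki67 encodes Ki-67, which coats mitotic chromosomes, and was at 113 CPM in WT KCs, 70.8 in YAPKO, 36.5 in TAZKO and 41.3 in DKO. In T cells it was at 25.3 CPM in WT, 60.1 in YAPKO, 122 in TAZKO and 76.96 in DKO, and in ECs at 20.2 CPM in WT, 30.2 in YAPKO, 12.2 in TAZKO and 14.9 in DKO. Mki67 was 0.326 (0.278 to 0.378) times WT in TAZKO KCs and 4.71 (3.47 to 6.88) times WT in TAZKO T cells, so the same gene moves in opposite directions in the 2 types. Top2a encodes the topoisomerase that untangles sister DNA and was at 102 CPM in WT KCs, 80.1 in YAPKO, 36.0 in TAZKO and 35.2 in DKO. T cells had Top2a at 29.1 CPM in WT, 79.9 in YAPKO, 162 in TAZKO and 87.9 in DKO, a ratio of 5.46 (4.11 to 7.72) in TAZKO. In ECs it was at 21.3 CPM in WT, 39.7 in YAPKO, 17.4 in TAZKO and 18.4 in DKO, highest in YAPKO. Both Mki67 and Top2a have TTTGAA and CCAAT in the promoters printed above.

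Cyclins, their kinase and the ligase that destroys them come next. Ccnb1, cyclin B1, was at 12.7 CPM in WT KCs, 7.61 in YAPKO, 5.10 in TAZKO and 3.66 in DKO. In T cells it was at 7.77 CPM in WT, 13.4 in YAPKO, 11.98 in TAZKO and 9.29 in DKO. ECs had it at 2.30 CPM in WT, 2.22 in YAPKO, 0.663 in TAZKO and 1.06 in DKO, with 5 UMIs in TAZKO, and it was the member lower than WT by 2 times or more in both TAZKO and DKO ECs. Its ratio was 0.332 (0.0860 to 0.771) in TAZKO ECs and 0.492 (0.189 to 1.03) in DKO ECs. Cdk1, the kinase that B cyclins switch on, was at 47.5 CPM in WT KCs, 40.9 in YAPKO, 21.6 in TAZKO and 20.4 in DKO. T cells had Cdk1 at 13.6 CPM in WT, 27.6 in YAPKO, 34.8 in TAZKO and 31.2 in DKO, and ECs at 15.1 CPM in WT, 22.3 in YAPKO, 12.1 in TAZKO and 12.3 in DKO. Cdk1 was below WT in all knock-out KCs and above WT in all knock-out T cells. Ccnb2, the second B cyclin, was at 12.97 CPM in WT KCs, 11.2 in YAPKO, 9.01 in TAZKO and 2.65 in DKO. Its level in ECs was 3.45 CPM in WT, 7.66 in YAPKO, 3.32 in TAZKO and 3.54 in DKO, and the YAPKO ratio was 2.19 (1.49 to 3.38). In KCs the large step of Ccnb2 comes at DKO.

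Ccna2, cyclin A2, which acts from S phase to early mitosis, was at 21.4 CPM in WT KCs, 13.95 in YAPKO, 16.0 in TAZKO and 6.11 in DKO. In T cells Ccna2 was at 8.42 CPM in WT, 19.1 in YAPKO, 24.0 in TAZKO and 23.2 in DKO. Cdc20 activates the ligase that ends mitosis and was at 10.9 CPM in WT KCs, 5.65 in YAPKO, 4.76 in TAZKO and 2.65 in DKO. Here too WT was highest and DKO lowest. Ube2c hands ubiquitin to the same ligase and was at 76.8 CPM in WT KCs, 51.1 in YAPKO, 34.3 in TAZKO and 16.5 in DKO. T cells had Ube2c at 27.2 CPM in WT, 87.0 in YAPKO, 93.6 in TAZKO and 83.6 in DKO, with the 3 knock-out libraries close to each other and WT apart.

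The kinases of mitosis and their partners follow. Plk1, Polo-like kinase, was at 13.9 CPM in WT KCs, 9.11 in YAPKO, 6.46 in TAZKO and 3.46 in DKO and at 3.88 CPM in WT T cells, 9.55 in YAPKO, 12.8 in TAZKO and 7.63 in DKO. Aurka, Aurora kinase A of the spindle poles, was at 9.80 CPM in WT KCs, 5.88 in YAPKO, 5.44 in TAZKO and 1.43 in DKO, with 7 UMIs in DKO. Unlike Plk1, it differed little in T cells, at 8.42 CPM in WT, 8.49 in YAPKO, 9.70 in TAZKO and 8.29 in DKO. Aurkb, Aurora kinase B of the centromere, was at 20.5 CPM in WT KCs, 16.1 in YAPKO, 10.5 in TAZKO and 6.72 in DKO and at 7.12 CPM in WT T cells, 13.1 in YAPKO, 19.97 in TAZKO and 17.6 in DKO. All 3 kinases were lowest in DKO among the KCs. Birc5 encodes survivin, a partner of Aurora B, and was at 62.4 CPM in WT KCs, 49.1 in YAPKO, 21.1 in TAZKO and 19.5 in DKO. In T cells it was at 25.3 CPM in WT, 49.5 in YAPKO, 73.3 in TAZKO and 61.7 in DKO, and in ECs at 9.10 CPM in WT, 19.9 in YAPKO, 5.31 in TAZKO and 6.48 in DKO. The YAPKO ratio in ECs was 2.17 (1.71 to 2.81). Tpx2, which activates Aurora A on the spindle, was at 39.4 CPM in WT KCs, 23.9 in YAPKO, 11.7 in TAZKO and 12.6 in DKO. T cells had Tpx2 at 11.01 CPM in WT, 15.9 in YAPKO, 33.4 in TAZKO and 27.9 in DKO. Pbk, a kinase active in mitosis, was at 11.8 CPM in WT KCs, 8.88 in YAPKO, 3.74 in TAZKO and 4.07 in DKO and at 2.59 CPM in WT T cells, 3.89 in YAPKO, 9.98 in TAZKO and 5.31 in DKO. ECs had Pbk at 2.68 CPM in WT, 5.82 in YAPKO, 3.58 in TAZKO and 1.53 in DKO, and YAPKO stood above the other 3 libraries at 2.13 (1.37 to 3.52) times WT.

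Genes of the centromere and kinetochore, where chromosomes meet the spindle, fall in 2 groups. Cenpa, the histone variant that marks the centromere, was at 35.7 CPM in WT KCs, 34.9 in YAPKO, 28.7 in TAZKO and 26.7 in DKO and changed little. In ECs it was at 68.6 CPM in WT, 82.7 in YAPKO, 83.0 in TAZKO and 91.1 in DKO, lowest in WT. Cenpa was also the mitotic member with the smallest part of its UMIs in dividing cells called without its own UMIs, 30.9%, and such shares below are taken in the same way. Cenpe, a kinetochore motor, was at 25.9 CPM in WT KCs, 22.9 in YAPKO, 13.6 in TAZKO and 10.99 in DKO and at 8.42 CPM in WT T cells, 16.6 in YAPKO, 18.3 in TAZKO and 16.6 in DKO. Cenpf, a large kinetochore protein, was at 27.9 CPM in WT KCs, 20.2 in YAPKO, 12.4 in TAZKO and 7.13 in DKO and at 16.2 CPM in WT T cells, 31.8 in YAPKO, 56.5 in TAZKO and 46.8 in DKO. Knl1, the scaffold on which the spindle checkpoint assembles, was at 19.5 CPM in WT KCs, 15.8 in YAPKO, 6.29 in TAZKO and 7.13 in DKO and at 10.4 CPM in WT T cells, 14.1 in YAPKO, 26.5 in TAZKO and 21.6 in DKO. Unlike Cenpa, these 3 genes fell by a larger factor in TAZKO and DKO KCs. In ECs Knl1 was at 3.45 CPM in WT, 8.22 in YAPKO, 1.72 in TAZKO and 3.18 in DKO, and YAPKO was 2.34 (1.60 to 3.61) times WT. Bub1, a checkpoint kinase, was at 9.65 CPM in WT KCs, 5.07 in YAPKO, 3.23 in TAZKO and 2.65 in DKO, at 1.34 CPM in WT ECs, 3.51 in YAPKO, 1.19 in TAZKO and 1.30 in DKO and at 1.94 CPM in WT T cells, 6.01 in YAPKO, 9.98 in TAZKO and 7.30 in DKO. The WT T cells gave only 3 UMIs of Bub1, so its ratio of 3.96 (1.62 to 26.1) in TAZKO T cells is wide.

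Motors and other spindle proteins close the mitotic group. Kif11, the motor that pushes the spindle poles apart, was at 19.6 CPM in WT KCs, 14.8 in YAPKO, 7.48 in TAZKO and 6.11 in DKO and at 7.12 CPM in WT T cells, 16.6 in YAPKO, 30.5 in TAZKO and 20.2 in DKO. Kif2c, which takes microtubules apart at the centromere, was at 6.64 CPM in WT KCs, 5.77 in YAPKO, 2.55 in TAZKO and 2.24 in DKO. Kif23, a motor of the midbody, was at 70.0 CPM in WT KCs, 49.7 in YAPKO, 41.1 in TAZKO and 37.7 in DKO and in TAZKO and DKO was less lowered than Kif11 and Kif2c. Kif23 also had UMIs in neutrophils without any UMI of the other mitotic members, at 76.9 CPM in WT, 58.0 in YAPKO, 147 in TAZKO and 56.7 in DKO. Prc1, which bundles microtubules between the parting chromosomes, was at 46.5 CPM in WT KCs, 38.1 in YAPKO, 12.9 in TAZKO and 13.2 in DKO and at 10.4 CPM in WT T cells, 32.9 in YAPKO, 46.8 in TAZKO and 38.1 in DKO. Nusap1, a spindle protein, was at 26.7 CPM in WT KCs, 22.0 in YAPKO, 14.3 in TAZKO and 4.89 in DKO, the largest gap between TAZKO and DKO of the motors and spindle proteins. In T cells Nusap1 was at 17.5 CPM in WT, 33.6 in YAPKO, 65.3 in TAZKO and 39.5 in DKO. Hmmr, a spindle protein that is also a hyaluronan receptor, was at 19.9 CPM in WT KCs, 12.5 in YAPKO, 4.93 in TAZKO and 6.52 in DKO and at 9.06 CPM in WT T cells, 13.4 in YAPKO, 29.9 in TAZKO and 22.6 in DKO. ECs had Hmmr at 8.14 CPM in WT, 9.05 in YAPKO, 2.52 in TAZKO and 4.24 in DKO, and its TAZKO ratio was 0.322 (0.178 to 0.513).

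Stmn1 encodes stathmin, which destabilizes microtubules, and was at 179 CPM in WT KCs, 130.0 in YAPKO, 71.4 in TAZKO and 70.9 in DKO. In ECs it was at 58.3 CPM in WT, 116 in YAPKO, 39.8 in TAZKO and 76.7 in DKO, and in T cells at 145 CPM in WT, 174 in YAPKO, 216 in TAZKO and 184 in DKO. Stmn1 too was below WT in the knock-out KCs and above WT in the knock-out T cells, with 71.7% of its UMIs in dividing cells, less than most mitotic members. In BECs without any UMI of the other mitotic members Stmn1 was at 127 CPM in WT, 122 in YAPKO, 85.4 in TAZKO and 213 in DKO.

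The replication members took no part in calling cells dividing, so a smaller share of their UMIs in those cells is in part built into the call. In KCs they were together at 791 CPM (769 to 812) in WT, 478 (463 to 493) in YAPKO, 326 (312 to 341) in TAZKO and 397 (379.6 to 415) in DKO. The ratio to WT was 0.604 in YAPKO, 0.413 in TAZKO and 0.502 in DKO, so DKO is above TAZKO for replication and below it for mitosis. All 12 were below WT in each knock-out library. By the rule of 2 times or more, 2 of 12 were lower in YAPKO KCs, 11 in TAZKO, all but Pcna, and 8 in DKO, beside 4.21%, 5.18% and 3.48% of all genes. The median ratio of the replication members was 0.5999 in YAPKO, 0.326 in TAZKO and 0.458 in DKO.

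The helicase subunits are Mcm2, Mcm3, Mcm5 and Mcm6. Mcm5 was at 57.8 CPM in WT KCs, 27.9 in YAPKO, 19.9 in TAZKO and 28.7 in DKO, at 10.7 CPM in WT ECs, 14.9 in YAPKO, 13.9 in TAZKO and 9.78 in DKO and at 31.1 CPM in WT T cells, 33.9 in YAPKO, 33.1 in TAZKO and 28.2 in DKO. Its ratio was 0.484 (0.410 to 0.569) in YAPKO KCs and 0.346 (0.277 to 0.424) in TAZKO KCs. Mcm5 in T cells stayed within a narrow range while Top2a in the same cells did not. Mcm2 was at 40.3 CPM in WT KCs, 14.5 in YAPKO, 13.3 in TAZKO and 17.7 in DKO, with a YAPKO ratio of 0.362 (0.290 to 0.448). Mcm3 was at 80.7 CPM in WT KCs, 47.4 in YAPKO, 38.7 in TAZKO and 45.8 in DKO. Mcm6 was at 51.3 CPM in WT KCs, 31.4 in YAPKO, 14.96 in TAZKO and 23.4 in DKO. The order of the libraries was not the same for all 4 subunits, apart from WT being highest and TAZKO lowest. The promoters of Mcm5 and Mcm6 printed above hold the TTTGGCGC form.

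Clamp and clamp partner behaved differently from each other. Pcna, the clamp that holds the polymerase on DNA, was at 196 CPM in WT KCs, 126 in YAPKO, 125 in TAZKO and 127 in DKO, with the 3 knock-out libraries together and WT apart. In ECs Pcna was at 73.7 CPM in WT, 87.0 in YAPKO, 94.7 in TAZKO and 73.7 in DKO and in T cells at 93.9 CPM in WT, 95.1 in YAPKO, 115 in TAZKO and 87.2 in DKO. Pclaf binds the clamp and was at 95.3 CPM in WT KCs, 53.6 in YAPKO, 30.4 in TAZKO and 29.9 in DKO. T cells had Pclaf at 63.5 CPM in WT, 79.2 in YAPKO, 142 in TAZKO and 93.5 in DKO, and its TAZKO ratio was 2.22 (1.80 to 2.80). Pclaf had 89.5% of its UMIs in dividing cells and Pcna 26.6%. In KCs without any UMI of the mitotic members Pcna was at 80.05 CPM in WT, 62.1 in YAPKO, 92.9 in TAZKO and 102 in DKO.

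Genes of the deoxynucleotide supply follow. Rrm2, the small subunit of ribonucleotide reductase, was at 32.1 CPM in WT KCs, 22.8 in YAPKO, 9.35 in TAZKO and 7.33 in DKO. ECs had Rrm2 at 1.92 CPM in WT, 5.91 in YAPKO, 1.86 in TAZKO and 1.89 in DKO, a YAPKO ratio of 2.98 (1.84 to 5.38), and T cells at 25.9 CPM in WT, 35.7 in YAPKO, 36.2 in TAZKO and 23.9 in DKO. Rrm1, the large subunit, was at 65.0 CPM in WT KCs, 43.9 in YAPKO, 28.6 in TAZKO and 29.5 in DKO. The 2 subunits differ in where their UMIs lie, with 86.0% of Rrm2 and 37.8% of Rrm1 in dividing cells. Tyms, which makes thymidylate, was at 39.5 CPM in WT KCs, 23.1 in YAPKO, 4.25 in TAZKO and 20.8 in DKO, and its TAZKO ratio of 0.111 (0.0683 to 0.162) was the lowest of all members in KCs. Tk1, thymidine kinase, was at 89.9 CPM in WT KCs, 62.8 in YAPKO, 33.8 in TAZKO and 48.5 in DKO and at 2.59 CPM in WT ECs, 7.39 in YAPKO, 3.45 in TAZKO and 2.48 in DKO. Its YAPKO ratio in ECs was 2.79 (1.83 to 4.596).

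The last 2 members act on the new chromatin, Uhrf1, which reads methyl groups on the old strand, and Esco2, which locks cohesin around the sisters. Uhrf1 was at 28.2 CPM in WT KCs, 14.6 in YAPKO, 5.10 in TAZKO and 11.6 in DKO and at 2.01 CPM in WT ECs, 5.63 in YAPKO, 3.05 in TAZKO and 2.24 in DKO. Esco2 was at 14.9 CPM in WT KCs, 9.22 in YAPKO, 3.06 in TAZKO and 6.31 in DKO and at 7.12 CPM in WT T cells, 9.55 in YAPKO, 19.1 in TAZKO and 8.62 in DKO. Both were lowest in TAZKO KCs, and in ECs Uhrf1 was 2.72 (1.68 to 4.84) times WT in YAPKO. The TAZKO ratio of Esco2 in T cells was 2.50 (1.41 to 5.63).

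In ECs the replication members were together at 246 CPM in WT, 320.1 in YAPKO, 289.6 in TAZKO and 244 in DKO, which is 1.30 times WT in YAPKO, 1.18 times in TAZKO and 0.990 times in DKO. TAZKO ECs were thus above WT for replication and below it for mitosis, though the mitotic level lies above WT with limits read as UMIs or without likely doublets. Rrm2, Tk1 and Uhrf1 were the 3 of 12 higher by 2 times or more in YAPKO, beside 2.42% of all genes. None of the 12 was higher in TAZKO or DKO, beside 7.03% and 4.46%, or lower, beside 3.26% and 3.53%. T cells had the replication members at 403 CPM in WT, 463 in YAPKO, 564 in TAZKO and 449 in DKO, ratios of 1.15, 1.40 and 1.11. Pclaf and Esco2 were the 2 of 12 higher by 2 times or more in TAZKO, near the 15.6% of all genes, with none in YAPKO or DKO, beside 2.73% and 6.63%. The ratios of the summed levels in T cells were larger for the mitotic members than for the replication members.

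Within dividing cells the balance of the 2 groups differed by type. Replication members gave 37.5% of all member UMIs in dividing KCs of WT, 32.3% in YAPKO, 23.8% in TAZKO and 39.1% in DKO. The share of dividing KCs with more replication than mitotic UMIs was 60.8% in WT, 36.7% in YAPKO, 27.0% in TAZKO and 50% in DKO. In dividing ECs replication members gave 11.3% of member UMIs in WT, 21.8% in YAPKO, 17.4% in TAZKO and 14.4% in DKO. Dividing KCs leaned to replication more than dividing ECs in each library. They were also deeper, with medians of 17699 UMIs in WT, 21018 in YAPKO, 7797 in TAZKO and 14622 in DKO. In dividing ECs the medians were 8333, 10551, 6093.5 and 7649.5 UMIs in the same order. The call asks for a fixed count of mitotic UMIs, so deeper cells pass with a lower mitotic CPM. The part of depth in the difference between KCs and ECs was not tested. Since dividing cells were called from mitotic members only, cells that copy DNA without mitotic UMIs are not among them.

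Other types add to the picture with fewer cells. MACs were at 1396 CPM (1335 to 1458) in WT, 646 (626 to 666) in YAPKO, 512 (460.0 to 568) in TAZKO and 347 (331 to 364) in DKO, and ratios to WT were 0.463 in YAPKO, 0.367 in TAZKO and 0.249 in DKO. Dividing MACs were 18 of 140 in WT (12.9%), 50 of 496 in YAPKO (10.1%), 8 of 100 in TAZKO (8%) and 22 of 610 in DKO (3.61%). In TAZKO 1 cell held 47.5% of the mitotic UMIs of MACs, and without the top cell of each library the levels are 1182 CPM in WT, 596 in YAPKO, 273 in TAZKO and 306 in DKO. MACs were thus highest in WT by level, as KCs were, while TAZKO or DKO is lowest by level depending on this cell. By share the ratios to WT were 0.784 (0.450 to 1.43) in YAPKO and 0.622 (0.234 to 1.504) in TAZKO, whose intervals hold 1. In DKO the ratio was 0.281 (0.144 to 0.555), whose interval does not. In the cluster led by Mmp12, Trem2 and Ms4a7, 13 of 58 cells were dividing in WT, 41 of 261 in YAPKO, 7 of 47 in TAZKO and 20 of 423 in DKO. Of the 98 dividing MACs 8 held more granulocyte than MAC marker UMIs.

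cDCs had dividing cells in every library, 15 of 93 in WT (16.1%), 16 of 176 in YAPKO (9.09%), 21 of 124 in TAZKO (16.9%) and 26 of 255 in DKO (10.2%). Their mitotic members were at 1553 CPM in WT, 906 in YAPKO, 1526 in TAZKO and 942 in DKO. YAPKO and DKO were lower than WT by level, at 0.583 and 0.606 times, and TAZKO was at 0.982 times. The share was 0.564 times WT (0.261 to 1.22) in YAPKO and 0.632 times (0.323 to 1.28) in DKO, and these intervals, like those after thinning, hold 1. NK cells had 1 dividing cell of 109 in WT, 12 of 221 in YAPKO, 3 of 108 in TAZKO and 0 of 102 in DKO (floor 2.94%), with levels of 199 CPM in WT, 1651 in YAPKO, 353 in TAZKO and 81.7 in DKO. The YAPKO level was 8.29 times WT (6.68 to 10.4), but 1 cell held 61 of the 87 mitotic UMIs in WT, and without the top cell of each library the levels are 60.8 CPM in WT, 1390 in YAPKO, 207 in TAZKO and 66.6 in DKO. B cells had few dividing cells, 6 of 425 in WT, 5 of 434 in YAPKO, 2 of 576 in TAZKO and 0 of 323 in DKO (floor 0.929%). Plasmacytoid dendritic cells (pDCs) had 5 of 112, 6 of 206, 2 of 239 and 7 of 425, and HSCs 7 of 100, 6 of 43, 3 of 95 and 2 of 78, in the same order. Plasma cells and granulocyte progenitors were few, with 12 of 26 and 7 of 9 cells dividing. Both types were labelled only within clusters picked for a high mitotic level, so these shares are in part built into the labels.

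HCs, where the deletion acts, had few dividing cells. They were 1 of 2206 in WT (0.0453%), 17 of 1215 in YAPKO (1.40%), 0 of 2981 in TAZKO (floor 0.101%) and 10 of 3033 in DKO (0.330%). A floor, here and elsewhere, is the share that 3 counts would give and not the end of an interval. Median depth was 2142 UMIs per HC in WT, 5959 in YAPKO, 1789 in TAZKO and 6119 in DKO, and the part of depth in these shares was not tested. After thinning the shares were 0.236% in WT, 0.954% in YAPKO, 0 in TAZKO with a floor of 0.230% and 0.339% in DKO. The mitotic members were at 18.3 CPM in WT, 64.3 in YAPKO, 16.4 in TAZKO and 31.6 in DKO in HCs, and in YAPKO 1 cell held 276 of 1098 mitotic UMIs (25.1%), without which the level is 48.3 CPM. Dividing HCs had a median doublet score of 0.55 in YAPKO and 0.634 in DKO, beside 0.275 and 0.341 in the other HCs. Markers of other cell types had a median of 955 CPM in dividing HCs of YAPKO and 1132 in DKO. In the other HCs it was 946 and 420 CPM. The 1 dividing HC of WT had 2475 CPM, beside a median of 616. The part of doublets in these HC values was not tested. HCs lay in clusters of their own in each library, led by Mup genes in WT, by Krt18 and Hp or by Apoa4 and Saa1 in YAPKO, by Cyp2e1 and Cyp2c29 in TAZKO and by Gstm3 and Gsta2 in DKO. The replication members were at 39.7 CPM in WT, 54.4 in YAPKO, 53.0 in TAZKO and 71.8 in DKO in HCs, highest in DKO, where Tyms was at 14.5 CPM beside 7.39 in WT.

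BECs, the other cells in which the deletion acts, were few. They had 1 dividing cell of 54 in WT, 2 of 32 in YAPKO, 0 of 28 in TAZKO (floor 10.7%) and 0 of 7 in DKO (floor 42.9%). The 2 dividing YAPKO cells had neutrophil markers at 73950 CPM and BEC markers at 9468. Neutrophil markers were at 26.7 CPM in the other YAPKO BECs. The 1 dividing WT cell had HSC markers at 5980 CPM, beside 303 in the other WT BECs. The part of doublets in these BEC values was not tested. The mitotic level of BECs was 306 CPM in WT, 185 in YAPKO, 123 in TAZKO and 254 in DKO. Most of it was Stmn1, which BECs also held without other mitotic UMIs. Stmn1 gave 130 of 187 mitotic UMIs in WT, 60 of 83 in YAPKO, 26 of 37 in TAZKO and 19 of 20 in DKO. In WT 1 cell held 55.6% of the 187 mitotic UMIs, and without it the level is 140.3 CPM. In DKO 3 of the 7 cells held 85% of the 20 mitotic UMIs.

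**Figure D5:**
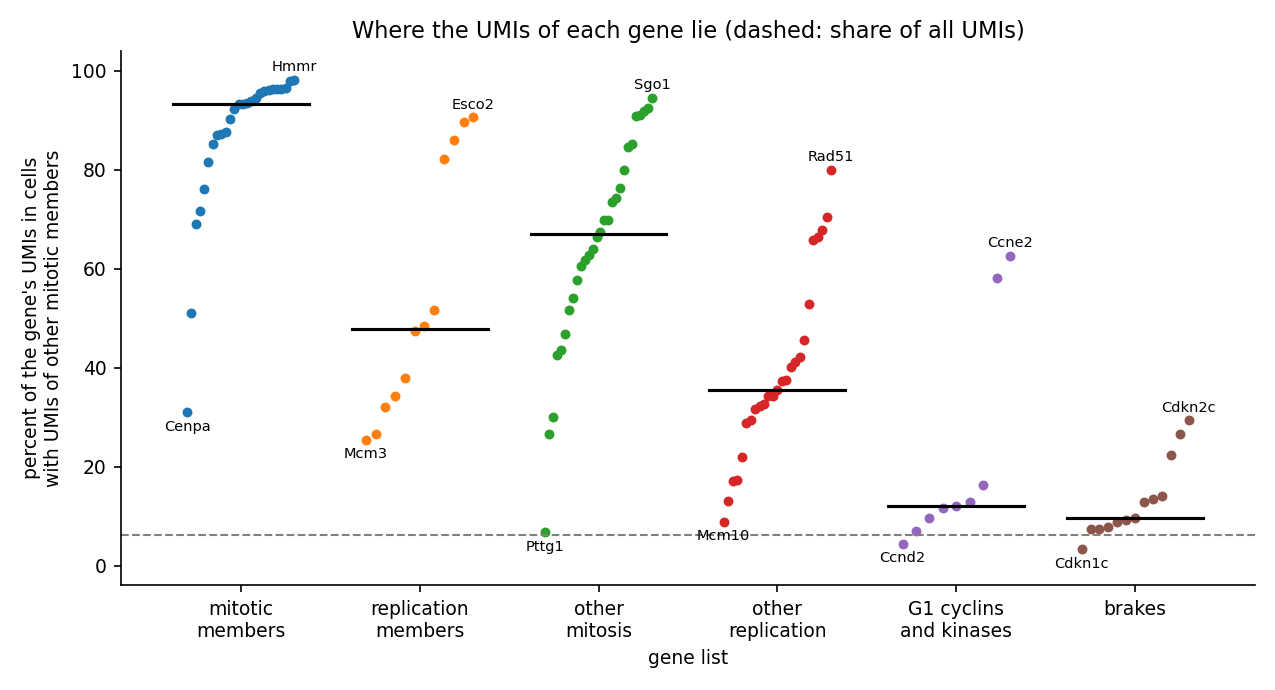
Share of the UMIs of each cell cycle gene that lies in dividing cells, which were called for each mitotic member without its own UMIs, by gene group. The median is 93.3% for the mitotic members and 47.8% for the replication members, while the 898 dividing cells called from all mitotic members hold 6.19% of all UMIs.

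Other cell cycle genes, from 4 lists chosen for their roles, place the members among their kind. For this the dividing cells were called anew for each gene without that gene. The mitotic members had a median of 93.3% of their UMIs in dividing cells, from 30.9% for Cenpa to 98.1% for Hmmr. The replication members had a median of 47.8%, from 25.4% for Mcm3 to 90.5% for Esco2. Among 28 further genes of mitosis the median was 66.9%, and among 25 further genes of replication 35.5%. For 9 genes of G1, cyclins and kinases with Myc, it was 11.997%, and for 13 genes listed as brakes, such as the Cdk inhibitors, 9.68%. The list names do not state what each gene does in these cells. The order of the groups runs from mitosis through replication to G1 and brakes, and the call from mitotic genes favors the first.

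Many of the further genes of mitosis and replication, but not all, were lower in KCs of TAZKO and DKO. Of the 28 genes of mitosis 15 were lower by 2 times or more in TAZKO KCs, 19 in DKO and 1 in YAPKO, beside 5.18%, 3.48% and 4.21% of all genes, so the 1 gene in YAPKO is at the share over all genes. Of the 25 replication genes 20 were lower in TAZKO, 11 in DKO and 6 in YAPKO. None of either list was higher in KCs. The G1 genes gave 2 lower in TAZKO, 2 in DKO and 1 in YAPKO, with median ratios of 0.968 in YAPKO, 0.878 in TAZKO and 0.783 in DKO, beside 0.964, 1.18 and 1.03 over all genes tested. Among them Ccnd1, cyclin D1, was at 222 CPM in WT KCs, 234 in YAPKO, 223 in TAZKO and 216 in DKO. Of the 13 brakes 2 of 12 tested were higher in YAPKO KCs, 1 of 11 was lower in TAZKO, and 1 was higher and 1 lower of 13 in DKO. Over all genes 0.962% were higher in YAPKO KCs and 4.03% in DKO KCs. Cdkn2a, an inhibitor of the G1 kinases, was at 7.99 CPM in WT KCs, 16.3 in YAPKO, 0.680 in TAZKO and 21.8 in DKO. In T cells 2 of 11 brakes tested were lower in YAPKO, 3 higher and 1 lower in TAZKO, and 1 higher and 1 lower in DKO, Cdkn2a being lower in all 3 and Lin9 higher in TAZKO and DKO. Over all genes of T cells 15.6% were higher in TAZKO and 6.63% in DKO, so the 1 higher gene in DKO is near that share. The shares lower were 3.26% in YAPKO, 2.73% in TAZKO and 1.93% in DKO. Cdkn2a was lower in TAZKO ECs too, and its part in the values of the members was not tested.

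In ECs 7 of 28 further genes of mitosis and 9 of 23 replication genes tested were higher by 2 times or more in YAPKO, beside 2.42% of all genes, with none lower. In TAZKO ECs 2 of 26 tested genes of mitosis were lower and 1 of 21 of replication was higher, beside 3.26% of all genes lower and 7.03% higher. In DKO ECs none of 27 genes of mitosis was lower or higher and 1 of 20 of replication was higher, beside 4.46%. These counts in TAZKO and DKO ECs are small, and those of replication are near or below the share over all genes. Of the brakes none of 13 was higher or lower in YAPKO ECs, 2 were lower in TAZKO and 1 higher in DKO. Of the 8 G1 genes tested in ECs 2 were higher in YAPKO, 2 in TAZKO and 3 in DKO, Ccne2 among them each time. Of the G1 genes tested in T cells none of 7 was higher in YAPKO, 2 of 9 in TAZKO and 1 of 8 in DKO. In T cells 3 of 23 tested genes of mitosis were higher in YAPKO, 10 of 26 in TAZKO and 3 of 22 in DKO. Over all genes 2.73% were higher in YAPKO T cells, 15.6% in TAZKO and 6.63% in DKO. The replication list gave none of 19 in YAPKO and DKO T cells, and 2 higher and 1 lower of 22 in TAZKO, the higher ones below the share over all genes. In TAZKO T cells the count of genes of mitosis was the largest of the 3 libraries, as was the share over all genes.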

How the data were processed

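The files hold 10x Genomics 3' v3.1 libraries of liver cells from 4 mice, as raw UMI counts per gene and barcode deposited by the authors, made with Cell Ranger on mm10. The submitters' processing notes give Cell Ranger 6.0.1, while the matrix headers give 4.0.0. Kept cells had 500 to 6000 genes and at most 10% of UMIs from genes whose symbol starts with mt-. Python 3.11.15 was used with numpy 2.4.6, scipy 1.17.1, pandas 2.3.3, leidenalg 0.10.2, igraph 0.11.9 and matplotlib 3.10.9.

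Cells were clustered (Leiden, resolution 1, 20 neighbors, 20 principal components of 2000 variable genes) with 320 cell cycle genes kept out. Clusters were named from 120 markers of 18 cell types, with a marker score of at least 0.6 after adding 20 CPM. They were called mixed where another lineage passed 0.4 of the score or the leading genes held more markers of another type. In the 2 clusters with at least 5 times the mitotic level of all cells, 881 of 932 cells (94.5%) were placed one by one, at a probability of 0.95 and at least 3 marker UMIs. Of the 26977 cells of named clusters 26340 could be placed in this way, and 97.5% of those kept their type. These limits were set with the data in view, and the members and lists were chosen with earlier results of these data known. The doublet score is the share of simulated doublets among a cell's neighbors.

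All 38 members are named. Full values per library are given for Mki67, Top2a, Ccnb1, Cdk1, Rrm2, Mcm5, Pcna and Stmn1, and for members that differ from WT by 2 times or more in the 3 types with the most mitotic UMIs. Other genes were chosen after their values were seen. Alternatives changed the cell limits, the share of mitochondrial UMIs, the clustering, the naming, the doublets, the scaling, the members and the limits for dividing cells and for counts. No test between libraries was made, since each genotype has 1 library. The scripts were tested on simulated data.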

Additional observations from a re-analysis of the deposited data

Results flagged for a closer look

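The level of the mitotic members was flagged because its ratio to WT lay on opposite sides of 1 in different cell types of the same library, with intervals that leave out 1. In YAPKO it was 0.736 in KCs, 1.58 in ECs and 1.76 in T cells. In TAZKO it was 0.424 in KCs, 0.835 in ECs and 2.53 in T cells. In DKO it was 0.358 in KCs and 1.97 in T cells. Some of these ratios change side under another choice of cells: with limits read as UMIs the YAPKO ratio in KCs is 1.49 and the TAZKO ratio in ECs 1.35, and without likely doublets the TAZKO ratio in ECs is 1.12 and the DKO ratio in T cells 0.971. The difference between the cell types was not tested, as there is 1 library per genotype.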

How the results depend on the processing

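Values below are ratios to WT, and the cause of each shift was not tested. Among the ratios of mitotic levels, 55 stayed within the interval of the reported value, 31 moved beyond it, and 4 whose interval leaves out 1 changed side. The DKO EC level, whose interval holds 1, crossed 1 as well and is counted as moved. Among the ratios of shares 79 stayed and 10 moved.

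With the limits of 500 and 6000 read as UMIs, the KC level was 1.49 in YAPKO, on the other side of 1, 0.4001 in TAZKO and 0.287 in DKO. ECs had 2.91 in YAPKO, 1.35 in TAZKO, on the other side of 1, and 1.66 in DKO, and T cells 1.47, 1.46 and 1.38. The share was 2.26 in YAPKO KCs, 0.329 in TAZKO KCs, and 10.7, 2.52 and 0.651 in YAPKO, TAZKO and DKO ECs. DKO KCs then held 0 dividing cells, so this share has no ratio.

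With no upper limit on genes the KC level was 0.910 in YAPKO, 0.349 in TAZKO and 0.275 in DKO, and the EC level 1.91 in YAPKO. With types from marker genes alone it was 0.807, 0.549 and 0.393 in KCs, 1.71, 0.984 and 1.33 in ECs, and 2.37 in DKO T cells.

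With likely doublets left out the EC level was 4.10 in YAPKO, 1.12 in TAZKO and 1.79 in DKO, the T cell level was 0.971 in DKO, and the YAPKO EC share was 10.3. The TAZKO EC and DKO T cell levels changed side. Without Stmn1 the level was 1.48 in YAPKO ECs, 0.976 in DKO ECs, and 1.99, 2.97 and 2.27 in T cells.

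Thinning moved the KC share to 0.643 in YAPKO and 0.401 in TAZKO. Calling dividing cells at 3 UMIs from 2 members moved the DKO KC share to 0.578. With at most 20% of mitochondrial UMIs, with 2 times the cluster resolution, with scaling that leaves out HC markers, and with 10 UMIs from 5 members, none of these ratios moved.

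Of the 26 counts of members recomputed, 22 stayed. With 3 added to each count, 4 mitotic members were higher in YAPKO T cells and 0 lower in DKO ECs. With at least 50 UMIs, 0 were lower in DKO ECs and 1 in TAZKO ECs.

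The last 2 alternatives were chosen after seeing the data. Counting mixed cells with their best type gave KC levels of 0.690, 0.560 and 0.457 and a DKO KC share of 0.543, and was done for level and share, while the other was done for the level only. Leaving out the cell with the most mitotic UMIs in each library gave T cell levels of 2.44, 3.65 and 2.80. Of the values per library, 135 stayed and 105 moved.

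Under all 10 alternatives the KC level stayed below 1 in TAZKO, from 0.349 to 0.560, and in DKO, from 0.275 to 0.457. The EC level in YAPKO stayed above 1, from 1.48 to 4.10. No paired analysis was possible because each genotype has 1 library and the replicate number 1 is shared by all of them.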

Other observations

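In HCs, some genes that act before division differed between the libraries as well. Ccnd1, cyclin D1, was at 16.5 CPM in WT HCs, 49.96 in YAPKO, 22.4 in TAZKO and 51.0 in DKO. Myc was at 1.85 CPM in WT, 12.5 in YAPKO, 4.69 in TAZKO and 16.0 in DKO. Cdkn1a, which blocks Cdk activity, was at 26.5 CPM in WT, 79.9 in YAPKO, 28.9 in TAZKO and 10.3 in DKO. Ccnd1 and Myc were highest in the 2 libraries in which most dividing HCs were counted, and Cdkn1a was high in only 1 of them. HC depth was also highest in these 2 libraries, and its part was not tested.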
